A study of Mus musculus with 24 samples.

Results

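The promoters described here belong to 9 genes of the proneural basic helix-loop-helix (bHLH) class and its neural relatives, Neurog1, Neurog2, Neurog3, Atoh1, Neurod1, Olig1, Olig2, Olig3 and Bhlhe22. They were read in promoter capture Hi-C libraries of mouse cranial neural crest cells. In this assay cross-linked chromatin is cut with HindIII and ligated, and the junctions that hold a promoter fragment, called a bait, are pulled out with probes. A bait was taken for a gene when it held, or lay within 1 kb of, an annotated end of that gene. Each of the 9 genes had 1 bait, which named no other gene, out of 22203 baits in all. An interaction, or call, is a pair of fragments listed with a CHiCAGO score of at least 5. CHiCAGO scores a pair against the background of its own library, so the values compared were numbers of calls.

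The 24 libraries formed 12 groups of 2 replicates, called biological in the titles of all groups but Hoxa2PTE-42kb-del. They were wild-type (WT) neural crest progenitors at embryonic day E8.5, WT cells of FNP, Mx, Md and PA2 at E11.5, Ezh2cKO cells of the same 4 tissues at E11.5, Hoxa2PTE-36kb-del cells of Md and PA2, and Hoxa2PTE-42kb-del cells of PA2, both at E11.5. The labels do not spell these tissue names out; in this field they commonly mean the frontonasal process (FNP), the maxillary (Mx) and mandibular (Md) processes, and pharyngeal arch number 2 (PA2). The protocols name sorting of cells from Wnt1::Cre;ROSARFP embryos, in which Cre is driven by a neural crest and dorsal neural tube promoter, and from Ezh2cKO embryos. Not given in the sources used here are the driver of the conditional knockout, the place of the deletions and whether deletion cells were sorted. Contacts and not expression were measured, so neither the cell type nor the loss of Ezh2 could be checked in these files.

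A library held 142284 to 190343 calls, of which 136997 to 183781 joined fragments of the same chromosome (cis). Replicates of a group shared calls with a Jaccard index of 0.267 to 0.349, so a single call is often seen in 1 replicate only. The 6 deletion libraries stood apart in pairs of baits. Of 6049 bait pairs called in all 6 of them, 1714 (28.3%) were called in none of the other 18 libraries. Each library carried its own batch label, so a batch cannot be told apart from a library. The Ezh2cKO and both deletion comparisons share WT libraries.

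Proneural bHLH factors bind E-box DNA as dimers with widely expressed E proteins and switch progenitors to a neuronal fate. Notch signalling, through Hes repressors, holds them down in neighbouring cells, and Id proteins take their E-protein partners away. In the cranial neural crest and placodes the neurogenins start sensory neurons, while the crest of the facial processes mostly makes cartilage, bone and connective tissue. Ezh2 is the methyltransferase of Polycomb repressive complex 2, which marks silent developmental promoters with methylated lysine 27 of histone H3. Such promoters, often rich in CpG, can contact each other over long distances.

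Promoter windows were found in RefSeq (GRCm38.p6) for 7 of the 9 genes, all but Olig1 and Bhlhe22. The 250 bases before the start site are printed for Neurog2, Olig3 and Olig2, the members whose distant calls fell in Ezh2cKO. They are also printed for Neurod1, a member whose distant calls did not pass the test. The start site used for Neurog2, 127633136, lies inside the annotated gene, chr3:127632733-127635636. Its window therefore lies within that gene and not upstream of it. For the other genes with a window the start site was an annotated gene end. Capitals mark CG. The fifth line shows why the Atoh1 bait differs from the others: capitals mark a HindIII site, AAGCTT, just downstream of the Atoh1 start at position 64729125.

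Neurog2, chr3:127632886-127633135, plus strand: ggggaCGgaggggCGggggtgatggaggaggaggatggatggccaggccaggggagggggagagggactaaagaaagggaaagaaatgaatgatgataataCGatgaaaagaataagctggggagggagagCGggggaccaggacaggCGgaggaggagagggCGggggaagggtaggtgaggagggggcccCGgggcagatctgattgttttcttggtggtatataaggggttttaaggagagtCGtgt
Olig3, chr10:19356289-19356538, plus strand: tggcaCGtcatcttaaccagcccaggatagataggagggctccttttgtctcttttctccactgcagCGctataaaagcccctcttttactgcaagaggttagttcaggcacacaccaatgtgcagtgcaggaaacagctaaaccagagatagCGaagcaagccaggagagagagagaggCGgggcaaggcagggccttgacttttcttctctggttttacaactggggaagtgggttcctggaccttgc
Olig2, chr16:91225300-91225549, plus strand: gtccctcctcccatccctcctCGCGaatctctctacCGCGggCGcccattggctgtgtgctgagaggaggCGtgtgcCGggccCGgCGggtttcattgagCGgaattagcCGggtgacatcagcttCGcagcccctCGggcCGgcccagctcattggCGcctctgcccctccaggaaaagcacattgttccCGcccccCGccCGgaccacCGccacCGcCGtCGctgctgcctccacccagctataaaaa
Neurod1, chr2:79456637-79456886, minus strand: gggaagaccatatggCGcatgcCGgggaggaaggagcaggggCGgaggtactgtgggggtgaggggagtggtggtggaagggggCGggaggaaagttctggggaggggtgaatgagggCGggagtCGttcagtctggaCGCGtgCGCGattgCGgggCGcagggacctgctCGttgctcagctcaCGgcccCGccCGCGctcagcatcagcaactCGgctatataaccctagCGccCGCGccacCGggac
Atoh1, chr6:64729069-64729134, plus strand: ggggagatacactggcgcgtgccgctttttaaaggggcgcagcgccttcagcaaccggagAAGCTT

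These windows differ in CG. The Neurog2 window, which lies inside the annotated gene, held 8 CG and Olig3 4, against 22 in both Olig2 and Neurod1. The other windows held 29 (Neurog1), 18 (Neurog3) and 14 (Atoh1). Over all 32851 promoter windows of this length the median was 6, and 92.1% held at least 1 CG. The E-box CANNTG, which reads the same on both strands, was found 1 time each in Neurog3, Neurod1 and Olig3 and not in the other 4 windows, against 66.2% of all windows. AAGCTT occurred in the Atoh1 window alone among the 7, and in 7.45% of all windows counted with 50 further bases after the start. As a result the Atoh1 bait begins inside the gene and holds 0 of the 250 bases before the start, whereas the other 6 baits hold all 250.

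The 9 promoters differed widely in how many cis interactions they had. Over the E11.5 WT libraries Neurog2 had 36.6 ± 2.50 calls (mean ± SD, n = 8) and Bhlhe22 34.9 ± 5.30. Olig3 had 9.88 ± 2.95, and the other 6 had means from 2 (Olig1) to 4.13 (Neurod1). Bait fragments and their probes differ in length and yield, so levels of different baits are not a ranking of the genes. Neurog2, Olig3 and Bhlhe22 passed the filter on low values, a mean of at least 5 calls over all libraries, as did 10344 baits in all. All 9 passed at a mean of at least 1, with 19892 baits. For a second measure, cis calls at 500 kb or more, the filter was a mean of at least 1, passed by 13800 baits and by 7 of the 9, all but Neurog1 and Neurog3.

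**Figure D1:**
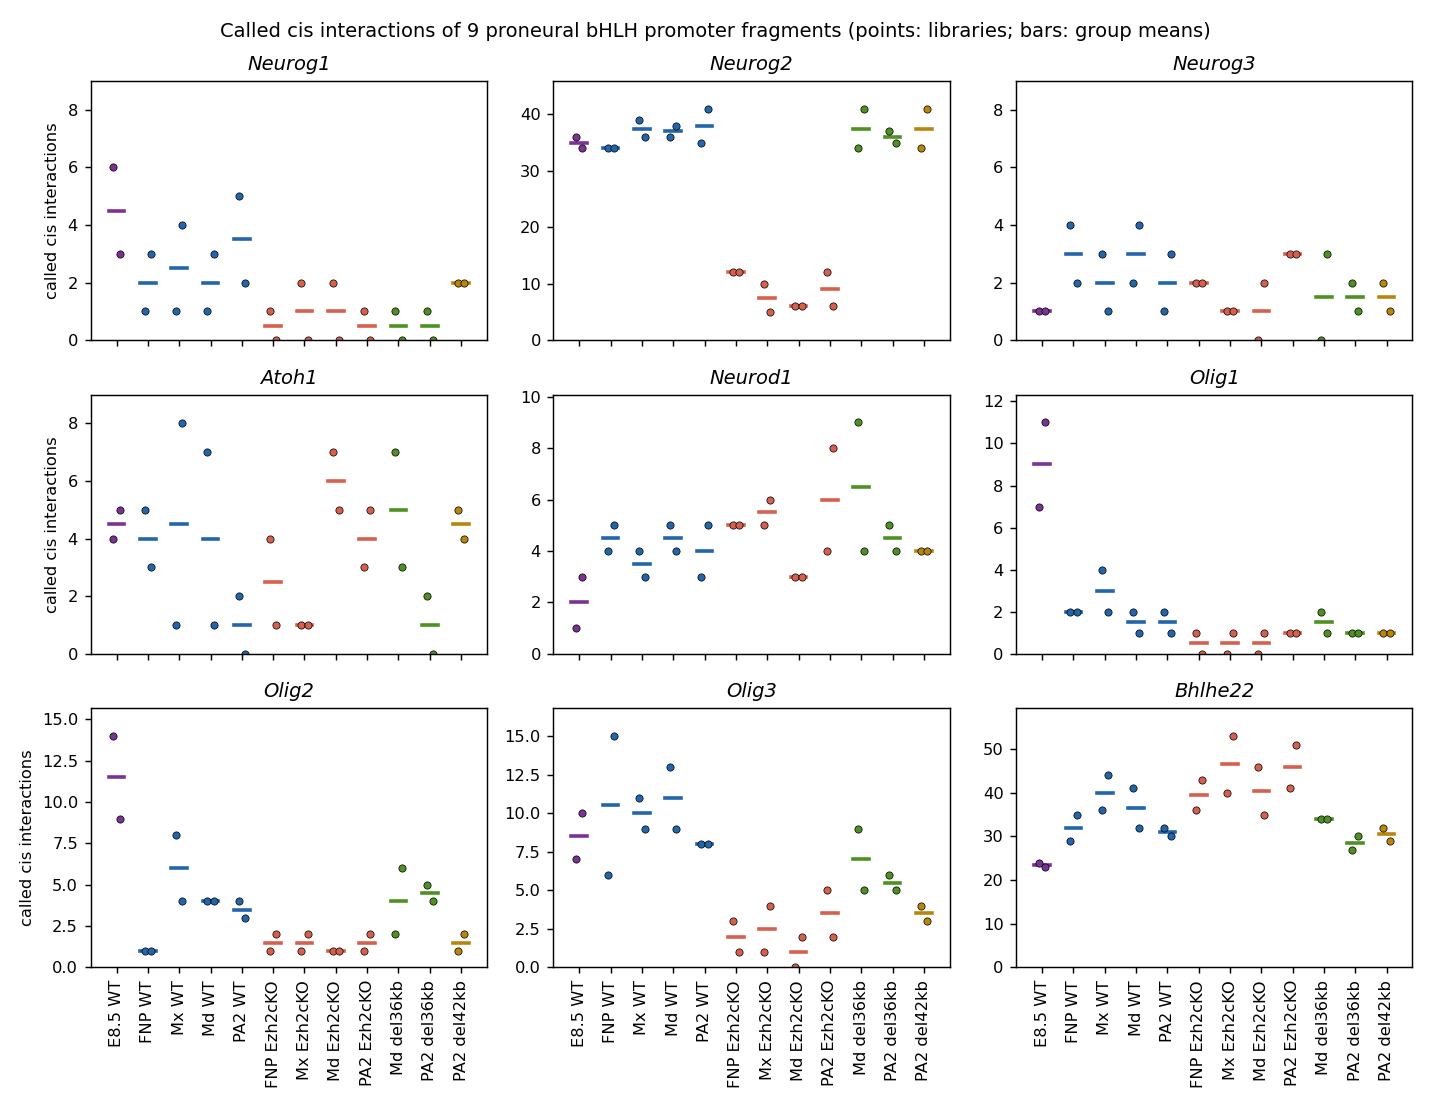
Called cis interactions (vertical axis, from 0) of each of the 9 promoter fragments in the 12 groups; points are libraries and bars are means of 2. Neurog2 has 34 to 41 calls in every library except the 8 Ezh2cKO libraries, which hold 5 to 12, and Olig1 and Olig2 are highest at E8.5.

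Neurog2 drives sensory and central neurogenesis. Its bait, chr3:127630619-127636117, holds the whole gene. At E8.5 it had 36 and 34 cis calls. The E11.5 WT libraries had 34 and 34 in FNP, 39 and 36 in Mx, 36 and 38 in Md and 35 and 41 in PA2. The Ezh2cKO libraries had 12 and 12 in FNP, 10 and 5 in Mx, 6 and 6 in Md and 12 and 6 in PA2. Every Ezh2cKO library lay below every other library. Relative to all cis calls of a library, Neurog2 fell by 2.14 on the log2 scale in Ezh2cKO (SE 0.14, limma, Benjamini-Hochberg adjusted p = 4.5e-10, averaged over the 4 tissues). Of all baits tested, 10.8% were called in this comparison, 5.38% higher and 5.39% lower. Of the 3 members tested, Neurog2 and Olig3 were called, both lower. Olig3 was near the filter, at a mean of 6.08 over all libraries, which its E11.5 WT libraries (9.88) raised. The count of called members therefore leans on that filter. At a mean of at least 1 all 9 members entered, with 5.92% of baits called. Neurog2 and Olig3 alone were called there (limma adjusted p = 9.8e-11 and 0.00013).

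Most of the missing Neurog2 calls were distant ones. At 500 kb or more, Neurog2 had 26 to 31 calls per E11.5 WT library and 0 to 2 per Ezh2cKO library. The fitted change was -5.14 (SE 0.22, limma adjusted p = 9.4e-20), where 5.08% of all baits tested were called and 2.82% of all baits tested were called lower. It was the most negative of the 13800 fitted changes. Its size rests on the pseudocount, 0.5, because the knockout counts are near 0, and with a pseudocount of 1 it was -4.40, the second most negative. For calls at 1 Mb or more it was the third most negative of 9077. Within tissues it was -3.68 (FNP), -5.99 (Mx), -5.76 (Md) and -5.14 (PA2), with limma adjusted p-values from 1.2e-11 to 8.9e-07. The same 4 comparisons called 0.717%, 0.819%, 1.09% and 1.02% of baits at this distance.

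Nearer partners of Neurog2 were called in both genotypes. A block 96.3 to 204 kb away held the promoters of Tifa and Ap1ar, with 3 to 6 calls in WT, 3 to 7 in Ezh2cKO and 6 and 9 at E8.5. A block 261 to 321 kb away with the Fam241a promoter held 3 to 5 calls in WT and 1 to 4 in Ezh2cKO. The Tifa promoter was called in 8 of 8 WT and 7 of 8 Ezh2cKO libraries, the Ap1ar promoter in 8 and 6, and the Fam241a promoter in 8 and 3. The Lhx8 promoter, of a forebrain and tooth homeobox gene 26696 kb away, was called in both E8.5 and 4 of 8 E11.5 WT libraries and in no Ezh2cKO library.

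**Figure D2:**
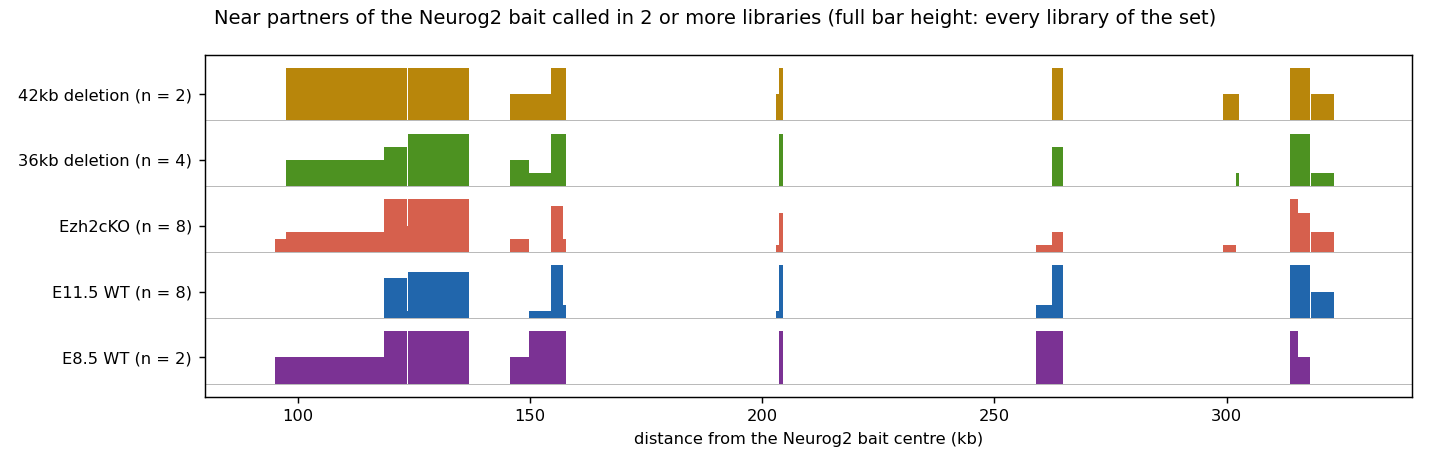
Partner fragments of the Neurog2 bait by distance from the bait centre in kb, for the near blocks; bar height is the share of libraries of a set that called the fragment. Partners at 96.3 to 204 kb and at 261 to 321 kb appear in all 5 sets, the Ezh2cKO set included.

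For all cis calls, the log2 change of Neurog2 was -1.44 for FNP (limma adjusted p = 0.00899), -2.42 for Mx (1.8e-05), -2.53 for Md (8.1e-06) and -2.16 for PA2 (6.4e-05). In these 4 comparisons 0.831%, 1.26%, 1.84% and 1.63% of baits were called. The FNP call was lost without any 1 of its 4 libraries (adjusted p = 0.051 to 0.0643). The limma F test for a difference of the effect between tissues gave an adjusted p of 0.840 for all cis calls, where 0.00967% of baits were called, and 0.719 at 500 kb or more. The stage comparison, E11.5 WT minus E8.5, gave -0.05 (SE 0.22, limma adjusted p = 0.888). Neither deletion comparison called Neurog2: the differences were 0.17 (limma adjusted p = 0.626) for 36kb and 0.12 (0.868) for 42kb, and both turned negative, to -0.03 and -0.02, without scaling by the library total.

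Counted fragment by fragment, 32 Neurog2 interactions were called in at least 7 of 8 libraries of either genotype, and 25 of them were in at most 1 of 8 Ezh2cKO libraries. No interaction of the 9 baits was gained by the mirrored rule. Bhlhe22 had 23 such interactions, Olig3 2 and Olig2 1, with no loss. Over all 70834 interactions of this kind, 1589 (2.24%) were lost and 1150 (1.62%) gained. A looser rule, at least 6 of 8 against at most 2 of 8, gave 28 losses and 2 gains, both of Bhlhe22, among 70 interactions of the 9 baits. Over all 92935 interactions under that rule 4.97% were lost and 5.71% gained.

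Neurog1 starts cranial sensory neurons with Neurog2, and its promoter window was the richest in CG of the 7. It had 6 and 3 cis calls at E8.5, 1 to 5 per E11.5 WT library (median 2.5), and 0 to 2 per Ezh2cKO library (median 0.5). At a filter of a mean of at least 1 the Ezh2cKO difference was -1.47 (SE 0.51), which did not pass (limma adjusted p = 0.0893, with 5.92% of baits called). Counted only where the bait was listed first, it was -1.55 and passed (adjusted p = 0.043). Its main partner was a block of 4 fragments 411 to 428 kb away over Pitx1, a hindlimb and jaw homeobox gene. That block held 3 and 2 calls at E8.5, 0 to 4 in E11.5 WT, and 0 in all 8 Ezh2cKO libraries. It held 0 or 1 call in each 36kb deletion library and 1 and 1 in 42kb. Low counts were not particular to Ezh2cKO: each 36kb deletion library had 0 or 1 Neurog1 cis call in all. That difference, -1.56, did not pass either (limma adjusted p = 0.200 at a mean of at least 1). The Pitx1 promoter itself was among the partners in 4 of 8 WT libraries. The Pitx1 bait had 11.4 ± 3.38 cis calls in WT and 13.9 ± 5.94 in Ezh2cKO (SD, n = 8), a difference of 0.18 that did not pass (limma adjusted p = 0.480).

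Neurog3, which specifies pancreatic endocrine cells, had 1 and 1 cis calls at E8.5, 1 to 4 in E11.5 WT and 0 to 3 in Ezh2cKO. These ranges overlap. Its most frequent partner was the promoter fragment of Macroh2a2, a histone variant gene, and of Gm2137, 353 kb away. That fragment was called in 6 of 8 WT and 6 of 8 Ezh2cKO libraries and in neither E8.5 library.

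Neurod1 acts below the neurogenins in neuronal and endocrine differentiation. It had 1 and 3 cis calls at E8.5, 3 to 5 in E11.5 WT (median 4) and 3 to 8 in Ezh2cKO (median 5). Neither the stage difference, 0.88 (SE 0.41, limma adjusted p = 0.147), nor the Ezh2cKO difference, 0.14 (0.818), passed at a mean of at least 1. Its calls gathered in a pair of blocks without protein-coding genes, 478 to 515 kb and 1393 to 1430 kb away on the lower-coordinate side. The first held 0 and 1 calls at E8.5 and 1 to 3 in E11.5 WT, and the second 0 and 0 at E8.5 and 1 to 3 in E11.5 WT. Neurod1 had no bait among its partners in any library, unlike the other 8 promoters.

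Atoh1 makes hair cells and cerebellar granule cells. Its calls were the least repeatable: of 65 partners, 54 were called in 1 library only, and none in 12 or more. The counts were 4 and 5 at E8.5, 0 to 8 in E11.5 WT (median 2.5) and 1 to 7 in Ezh2cKO (median 3.5), which overlap throughout. Its partners included 6 fragments over Ccser1, 3324 to 3419 kb away, with 0 to 4 calls per library. The promoter of Foxi3, a placode and otic regulator 6218 kb away, was called in both E8.5 libraries and in no other. The Mad2l1 promoter, a spindle checkpoint gene, was called in 5 of the 6 deletion libraries and in no other. It too is a bait, and the deletion libraries stood apart in bait pairs as a whole. Of the bait pairs called in all 6 of them, 28.3% were in none of the other 18 libraries.

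Olig3 marks dorsal neural tube progenitors. Its bait, chr10:19353650-19362525, holds the whole gene. It had 7 and 10 cis calls at E8.5. In E11.5 WT it had 6 and 15 (FNP), 11 and 9 (Mx), 13 and 9 (Md) and 8 and 8 (PA2). In Ezh2cKO it had 3 and 1 (FNP), 1 and 4 (Mx), 0 and 2 (Md) and 5 and 2 (PA2). The highest Ezh2cKO library, at 5, lay below the lowest WT library, at 6. Deletion libraries also reached low counts, with 5 to 9 calls in 36kb and 3 to 4 in 42kb. In Ezh2cKO, Olig3 fell by 2.21 on the log2 scale (SE 0.34, limma adjusted p = 0.00019). Of the single tissues, Md passed with -3.35 (limma adjusted p = 0.0104), but not without Md WT replicate 1 (adjusted p = 0.129) or Md Ezh2cKO replicate 1 (0.214). The limma F test for a difference between tissues had an adjusted p of 0.948.

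As with Neurog2, distant partners accounted for most of the Olig3 fall. At 500 kb or more it had 3 to 11 calls in WT (median 6) and 0 to 3 in Ezh2cKO (median 0.5), a change of -2.72 (SE 0.45, limma adjusted p = 7.2e-05). At this distance it had 1 to 6 calls in the 36kb and 1 to 2 in the 42kb deletion libraries. Between 200 and 500 kb it had 2 to 4 calls in WT and 0 to 2 in Ezh2cKO. Its largest distant block was at Tcf21, which encodes a bHLH factor of visceral and muscle-connective mesenchyme: 10 fragments, chr10:22811825-22849147, 3455 to 3491 kb away. It held 2 and 2 calls at E8.5, 2 to 6 per E11.5 WT library, 1 to 4 per 36kb deletion library, and 0 in all 8 Ezh2cKO libraries. The promoters of Nr2e1, a neural stem cell nuclear receptor 23228 kb away, and of Tcf21 were called in 3 and 5 of 8 WT libraries and in 0 of 8 Ezh2cKO libraries. A block at Sim1, a hypothalamic bHLH-PAS gene 31540 to 31549 kb away, had 0 to 3 calls in WT and 0 in Ezh2cKO. The near Slc35d3 and Il20ra promoters were called in 8 and 7 WT and in 5 and 6 Ezh2cKO libraries. The whole block of 3 fragments at Slc35d3 was lower, with 1 to 3 calls in WT and 0 or 1 in Ezh2cKO. Its fragment chr10:19852473-19854141 was called in 6 WT and 0 Ezh2cKO libraries.

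Of the distant partner baits of Olig3, Tcf21 and Nr2e1 fell in their whole counts. Tcf21 had 11.4 ± 3.02 cis calls in WT and 5 ± 1.85 in Ezh2cKO (SD, n = 8), a change of -1.17 (SE 0.20, limma adjusted p = 0.000632). Nr2e1 had 11.3 ± 1.49 and 1.38 ± 1.06, a change of -2.96 (SE 0.35, adjusted p = 4.1e-06). Both baits had more calls at E8.5, 13 and 23 for Tcf21 and 17 and 21 for Nr2e1. Low counts were seen in deletion libraries too. Nr2e1 had 10 to 13 calls in WT, 2 to 8 in 36kb and 3 to 5 in 42kb deletion libraries. Tcf21 had 7 to 15 in WT, 6 to 12 in 36kb and 8 in each 42kb deletion library. For Olig3 itself the stage difference was 0.06 (limma adjusted p = 0.944). Its deletion differences were -0.38 (0.657) for 36kb and -0.96 (0.501) for 42kb, where 11.1% and 1.84% of baits were called.

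Olig1 and Olig2, neighbours that direct oligodendrocytes and, in the case of Olig2, motor neurons, were highest at E8.5. Olig2 had 14 and 9 cis calls at E8.5. In E11.5 WT it had 1 and 1 (FNP), 8 and 4 (Mx), 4 and 4 (Md) and 4 and 3 (PA2). In Ezh2cKO it had 1 or 2 calls in every library. Olig1 had 7 and 11 calls at E8.5, 1 to 4 in E11.5 WT (median 2) and 0 or 1 in Ezh2cKO. At both genes the E8.5 libraries lay above every E11.5 library. At a mean of at least 1, the stage change was -2.08 for Olig1 (SE 0.62, limma adjusted p = 0.0215) and -1.82 for Olig2 (SE 0.49, 0.0108), and both were lower at E11.5. The Olig1 call was lost without E8.5 replicate 1 (adjusted p = 0.102) or replicate 2 (0.227), and the Olig2 call without E8.5 replicate 1 (0.207). Of all baits at this filter 17.3% were called by stage, 7.14% lower. The Ezh2cKO differences, -1.29 for Olig1 (limma adjusted p = 0.052) and -1.02 for Olig2 (0.0501), lay just outside the threshold. Both lay inside it with a pseudocount of 1 (0.0477 and 0.042). So did Olig1 without FNP Ezh2cKO replicate 1 (0.0336), Mx Ezh2cKO replicate 2 (0.0342) or Md Ezh2cKO replicate 2 (0.0376), and Olig2 without Mx WT replicate 2 (0.0424).

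Most of what Olig1 and Olig2 shared at a distance was Sim2, a bHLH-PAS gene of the midline and pharyngeal arches. The Sim2 block, chr16:94076385-94096215, is 2808 to 2823 kb from Olig1. Olig1 had 3 and 5 calls to it at E8.5, 0 to 3 in E11.5 WT and 0 in all Ezh2cKO and deletion libraries. Olig2 had 2 and 2, 0 to 4, and 0 in the same libraries. The Sim2 bait itself had 11.6 ± 2.67 cis calls in WT and 12.4 ± 4.47 in Ezh2cKO (SD, n = 8), a difference of -0.01 after scaling (limma adjusted p = 0.981). At 500 kb or more Olig2 fell by 1.74 (SE 0.45, limma adjusted p = 0.014), a call lost without Mx WT replicate 1 (0.0598) or FNP Ezh2cKO replicate 1 (0.0503). The Olig2 mean over all libraries there, 1.38, was near the filter of 1, and its E11.5 WT libraries (2.25) raised it. Olig1 differed by -1.39 (SE 0.46), which did not pass (0.0775).

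Olig2 also had a near block at E8.5. In a stretch of 95.0 kb that includes Olig1, 35.2 to 126 kb away, it held 7 and 3 calls at E8.5 and 0 or 1 in each E11.5 WT and Ezh2cKO library. Each deletion library held 1 or 2 calls there. The direct pair of the Olig1 and Olig2 promoter fragments, 44.9 kb apart, was called in all 6 deletion libraries and in none of the other 18. It is 1 of the 1714 bait pairs with that pattern given above, a pattern that sets the deletion libraries apart as a whole. The part of library preparation in it was not tested.

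**Figure D3:**
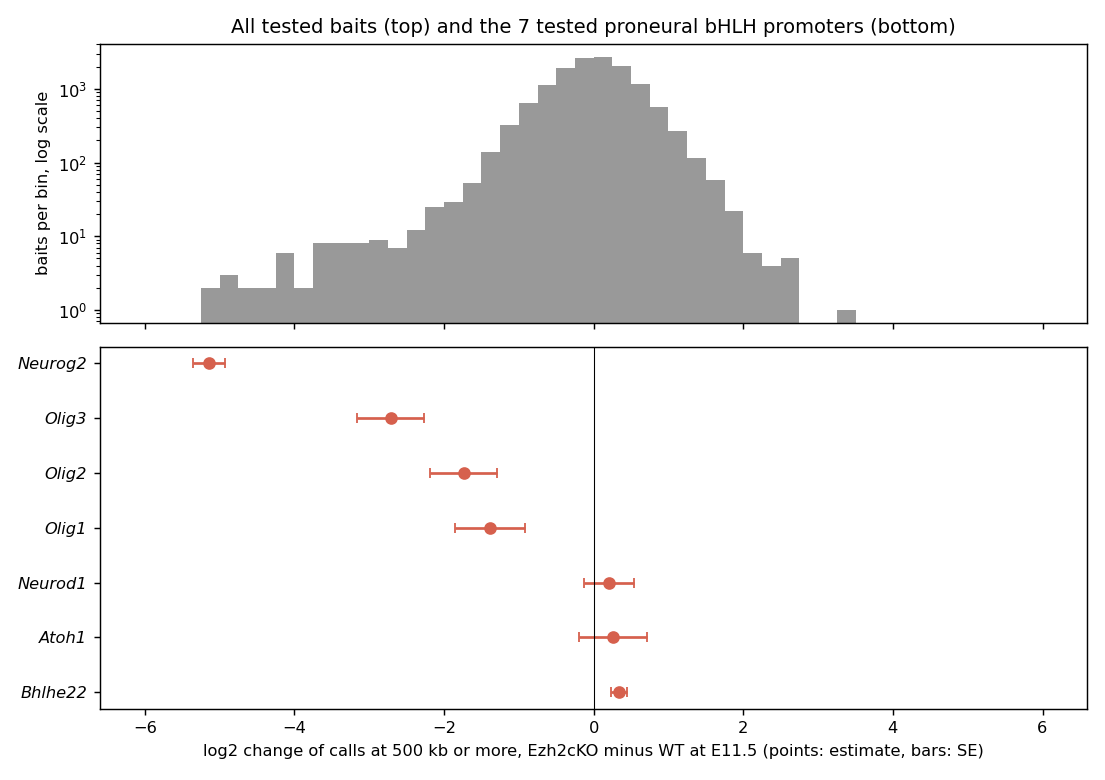
Fitted log2 change, Ezh2cKO minus WT at E11.5, of cis calls at 500 kb or more, for all 13800 baits (top, number per bin on a log scale) and for the 7 members tested (bottom, estimate with SE). Neurog2 lies at the lower edge of all baits, Olig3, Olig2 and Olig1 lie between -2.72 and -1.39, and Neurod1, Atoh1 and Bhlhe22 lie near 0.

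Bhlhe22, a relative of the Olig genes that shapes interneuron and retinal neuron subtypes, showed no fall. Its bait is chr3:18052023-18060357. It had 24 and 23 cis calls at E8.5. In E11.5 WT it had 29 and 35 (FNP), 36 and 44 (Mx), 41 and 32 (Md) and 32 and 30 (PA2). In Ezh2cKO it had 36 and 43, 40 and 53, 46 and 35, and 41 and 51 in the same order. The genotypes overlap between 35 and 44 calls. The Ezh2cKO difference was 0.27 (SE 0.11), which did not pass (limma adjusted p = 0.116). At 500 kb or more, where all its cis calls lie, it was 0.34 (SE 0.11, 0.0721). It did pass without Mx Ezh2cKO replicate 1 (0.0307), without Md Ezh2cKO replicate 2 (0.018) and for calls at 1 Mb or more, where it was 0.52 (limma adjusted p = 0.0204).

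Both E8.5 libraries had fewer Bhlhe22 calls than every E11.5 library. The stage difference was 0.43 (SE 0.17, limma adjusted p = 0.0585, where 28.9% of baits were called), just outside the threshold. It was inside without scaling by the library total (0.0142), without FNP WT replicate 1 (0.0487) and without Md WT replicate 2 (0.0419). The deletion differences were 0.09 (limma adjusted p = 0.742) and 0.11 (0.832), and both turned negative without scaling, to -0.11 and -0.02.

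Bhlhe22 contacted 1 side only. Of 127 cis partners, 126 lay at higher coordinates, none nearer than 564 kb. A first block, 564 to 723 kb away in a stretch without protein-coding genes, held 7 and 6 calls at E8.5, 1 to 7 in WT and 2 to 7 in Ezh2cKO. The main block, chr3:18927116-19312174, 385 kb long with 72 partner fragments, runs over Armc1, Mtfr1 and Pde7a, genes of mitochondrial function and cyclic AMP breakdown. It held 17 and 16 calls at E8.5, 26 to 40 in E11.5 WT, 29 to 46 in Ezh2cKO and 23 to 31 in the deletion libraries. Among its fragments, 40 were called in more Ezh2cKO than WT libraries and 14 in fewer. These counts are not scaled, and Ezh2cKO libraries held up to 190343 calls against up to 176164 in E11.5 WT. Neighbouring fragments are not independent, and the same share over all interactions was not counted, so no gain is read from them. In the main block both E8.5 libraries lay below every E11.5 library, whereas in the first they lay at the upper end of the E11.5 range. In all, 8 Bhlhe22 partners were called in all 24 libraries, against 1 Neurog2 partner and none of the other members. The Armc1 promoter was among the 8.

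The partner blocks set side by side show where calls went to 0. Blocks at Pitx1, Sim2 (seen from Olig1 and from Olig2), Tcf21 and Sim1 had no call in any of the 8 Ezh2cKO libraries. Blocks at Tifa and Ap1ar, Fam241a, Macroh2a2, Slc35d3, Il20ra, Armc1 and the Neurod1 blocks had calls in Ezh2cKO. All 4 genes of the first set encode developmental transcription factors: a homeodomain factor (Pitx1), bHLH-PAS factors (Sim1 and Sim2) and a bHLH factor (Tcf21). Blocks were drawn after the calls were seen, so this is a description without a test.

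**Figure D4:**
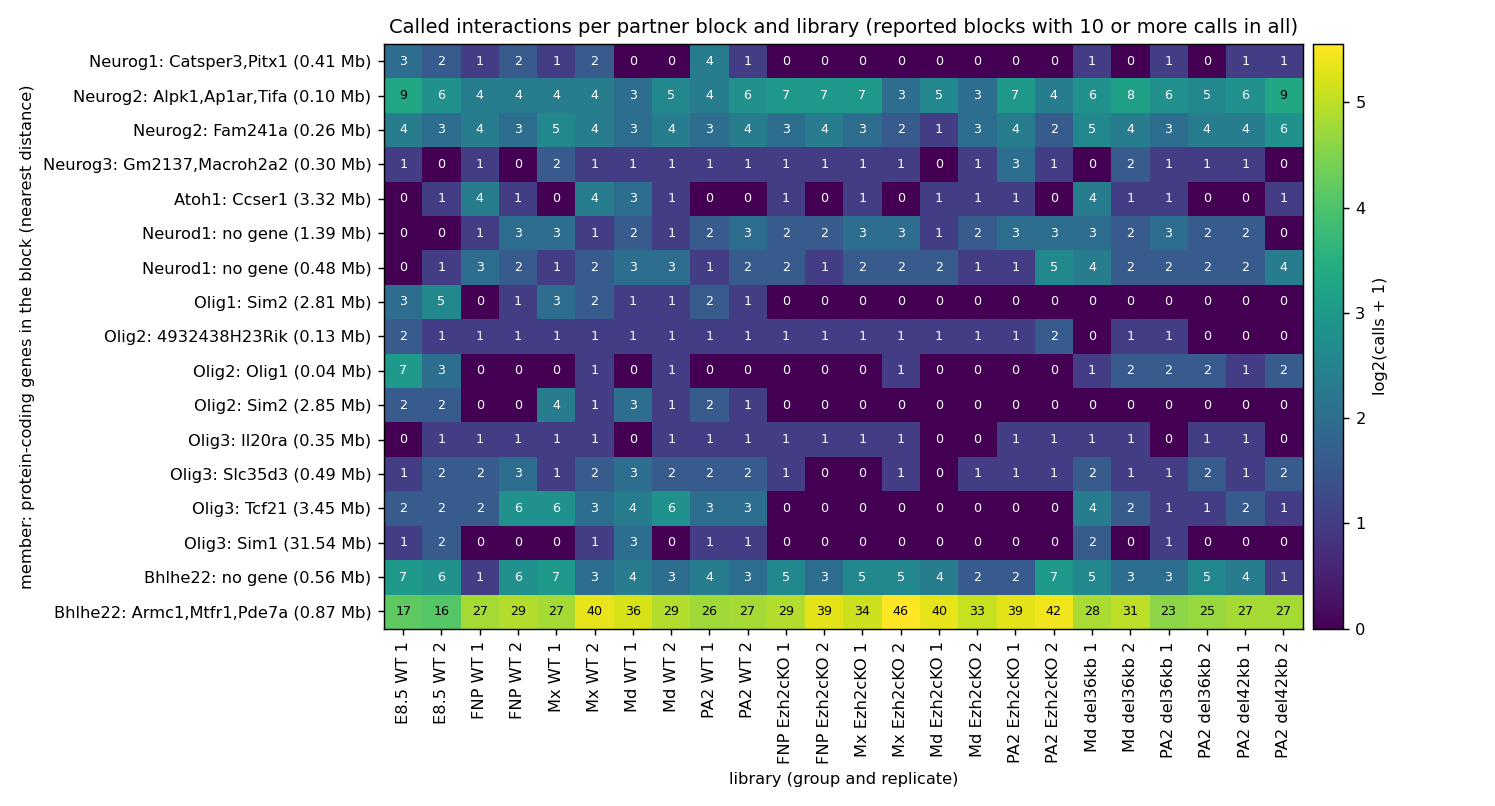
Number of called interactions in each library (columns) and partner block (rows, named by member, protein-coding genes in the block and nearest distance in Mb), for the reported blocks with 10 or more calls; colour is log2(calls + 1). The Pitx1, Sim2, Tcf21 and Sim1 rows are at 0 in the 8 Ezh2cKO columns, and every other row holds at least 1 call there.

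The number of distinct promoters contacted, in cis or on other chromosomes, was fitted as a further measure for the 5 members with a mean of at least 1. Neurog2 contacted 6 and 6 at E8.5, 4 to 6 per E11.5 WT library and 1 to 4 per Ezh2cKO library. It fell by 0.98 in Ezh2cKO (SE 0.18, limma adjusted p = 0.00293, with 3.61% of baits called, 2.08% lower). Olig3 contacted 2 to 5 in WT and 0 to 3 in Ezh2cKO, a difference of -0.92 (SE 0.30) that did not pass (limma adjusted p = 0.110). It passed at a score of at least 7 (adjusted p = 0.022) and without Md Ezh2cKO replicate 2 (0.0118). Bhlhe22, Neurog3 and Olig2 did not pass in Ezh2cKO, and no member passed by stage, where 4.88% of baits were called. The most frequent partner promoter of Olig2 was a bait at 4932438H23Rik, 132 kb away, called in 8 of 8 WT and 8 of 8 Ezh2cKO libraries and in 2 of 6 deletion libraries.

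The 4 WT tissues did not differ detectably at these promoters. The limma F test gave adjusted p-values of 0.999 for Neurog2, 0.999 for Olig3 and 0.883 for Bhlhe22, and 0.271% of baits were called. At a mean of at least 1, where 18 of 19892 baits were called, Olig2 had the lowest adjusted p of the 9 members, 0.446. Its unadjusted p was 0.0187. At 500 kb or more Olig2 was again the lowest of the members tested, with an adjusted p of 0.501 (unadjusted 0.00788). With 2 libraries per tissue a modest difference could not be seen.

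Other genes of the pathway were read from lists. Among other neuronal bHLH genes, 2 of 6 tested baits fell in Ezh2cKO and none rose, with a median log2 change of -0.22 against 0.01 over all baits, of which 5.39% were called lower and 5.38% higher. They were Ptf1a, which makes cerebellar and spinal inhibitory neurons (8 to 15 calls in WT, 1 to 5 in Ezh2cKO, -1.97, SE 0.21, limma adjusted p = 9.2e-07), and Neurod2 (5 to 13 and 1 to 3, -1.68, SE 0.22, adjusted p = 2.6e-05). Of the E proteins and Id inhibitors 0 of 6 passed in Ezh2cKO, with a median of 0.21. Of 18 Notch pathway baits 2 rose: Hes1, the repressor that holds proneural genes down (0.38, SE 0.11, limma adjusted p = 0.0251), and the ligand gene Dll1 (0.29, SE 0.09, 0.0393). The bHLH genes of mesenchyme and mesoderm went both ways, with 2 of 13 higher (Twist2 and Mesp1) and 3 lower (Tal1, Tcf21 and Hand2).

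By stage, 3 of the 6 other neuronal bHLH baits had fallen at E11.5, where 10.3% of all baits were called lower and 18.6% higher. They were Neurod2 (-1.37, limma adjusted p = 0.00587), Ptf1a (-1.13, 0.0133) and Bhlhe23 (-1.02, 0.0154), and the list's median was -0.69 against 0.03 over all baits. Olig1 and Olig2 were the members lower by stage. Among the E proteins and Id genes Id4 and Tcf12 were higher and Id3 was lower. In the Notch pathway Hes6 was higher, and 4 of 18 were lower, among them Maml1, Heyl and Dll1. Of the 12 sensory and motor neuron baits 2 were higher and 2 lower, and of 9 glial and oligodendrocyte baits Nkx6-1 alone was called, higher.

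Genes of the neurons and glia that these factors direct were also read. Of 12 sensory and motor neuron baits 5 fell in Ezh2cKO and none rose, against 5.39% of all baits called lower. The list's median log2 change was -0.02 against 0.01 over all baits, so the list as a whole did not shift. Mnx1 of motor neurons had 53 to 77 calls in WT and 3 to 8 in Ezh2cKO (-3.52, SE 0.12, limma adjusted p = 7.2e-15), and Insm1 of neuroendocrine cells changed by -3.16 (SE 0.27). Of 9 glial and oligodendrocyte baits 3 fell, Foxd3, Nkx2-2 and Nkx6-1, beside the same background of 5.39%, with a list median of -0.11. Of the markers of other cell types, 0 of 5 epithelial, 0 of 3 endothelial and 0 of 4 muscle baits were called in Ezh2cKO, and of 5 blood baits Tal1 was called, lower. Over all baits 10.8% were called. By stage, Cdh5 (2.14, SE 0.31, limma adjusted p = 2.6e-05) and Tek (1.27, SE 0.36, 0.0109) of the 3 endothelial baits were higher at E11.5, with a list median of 1.27. Krt14 of the 5 epithelial baits was higher (0.47), Spi1 of the 5 blood baits was lower (-1.72), and no muscle bait was called. The part of other cell types in the stage differences was not tested.

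The named baits whose scaled counts ran most like Neurog2 over the 12 group means were Isl1, a sensory and motor neuron homeobox gene (Pearson r = 0.976), and Tlx1, a homeobox gene of cranial sensory and spleen cells (r = 0.976). Isl1 had 24.3 ± 3.69 calls in WT and 10.8 ± 1.75 in Ezh2cKO, and Tlx1 21.8 ± 3.54 and 1.25 ± 1.28 (SD, n = 8). Olig3 ran most like Foxd3, a neural crest and glial gene (r = 0.954), and like the bait of Cpsf3 and Itgb1bp1 (0.953). Bhlhe22 ran most like Pik3r1 (0.928) and Tmem260 (0.912). Between members, Neurog2 and Olig3 had r = 0.878, and Bhlhe22 had -0.667 with Neurog2 and -0.565 with Olig3. All baits of a group come from the same libraries, so these values are descriptions.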

How the data were processed

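Per the deposited file names, each library has its own list of interactions. A line gives the bait, its other end and a CHiCAGO score made by the authors. The lists hold scores of 5 or more, and coordinates are GRCm38 (mm10), per the submitters' processing notes. Read depth is unknown, as are the mapping tool and the caller's version and options, not given in the sources used here. One PA2 36kb deletion library (replicate 2) was grouped by its title, because its genotype label repeats the title of another sample. The series design also names embryonic day 10.5, for which no library was used here.

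A bait was named for protein-coding RefSeq genes (GRCm38.p6) with an annotated end inside it or within 1 kb. Bait pairs are listed in 1 order only, so a call counted for a bait whether listed first or second. Partners called in at least 2 libraries were joined into blocks where under 50 kb apart. For each library log2 of the count plus 0.5 over the library's total of such calls was fitted on 12 group means with limma (version 3.58.1, under R 4.3.3), using its moderated variance with a trend. Contrasts were two-sided with Benjamini-Hochberg adjustment over all baits tested, at 0.05. Scaling to library totals hides any shift shared by every bait. On simulated data the fit was tested with 200 changed baits. Figures used Python 3.11.15 and matplotlib 3.10.9.

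Same-numbered replicates were not paired in the main fit: of 66 pairs of groups 1 had a correlation of deviations above 0.1 (median 0.004, highest 0.158). Tissues of the same genotype were not looked at apart, so pairing among them is not excluded. Alternatives were a pseudocount of 1, no scaling, lower filters, a score of at least 7, 1 Mb, a replicate block, other rules for lost interactions and leaving out each library. Counting a bait only where listed first, and the alternatives at a mean of at least 1 and for distant calls per tissue, were added after seeing the data. The text names all member baits, partner promoters in at least 6 of 8 libraries of a genotype or both E8.5 libraries, up to 3 called baits per list and direction, and the 2 most alike baits; further partners named were chosen after their values were seen. Some partners and listed genes are not reported here. The members and lists were chosen with earlier results of these data known.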

Additional observations from a re-analysis of the deposited data

Results flagged for a closer look

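Within pooled sets of 4 to 8 libraries, 12 of 81 checks found a library far from the others by Dixon's criterion, which flags about 1 in 20 by chance. Most of these sets have counts of a few calls. In E11.5 WT, Mx replicate 1 had the highest Olig1 cis count, 4, the highest Olig2 cis count, 8, and the highest Olig2 count at 500 kb or more, 7. In Ezh2cKO, single libraries stood out with 1 Neurog3 call and 1 Olig2 call at 500 kb or more, and with 2 Olig2 promoter partners. In the 36kb deletion, single libraries had 6 Neurog2 promoter partners, 0 Atoh1 promoter partners, 2 Olig3 promoter partners, 2 Olig1 cis calls, 1 Olig1 call at 500 kb or more and 3 Olig2 calls at 500 kb or more. The sets pool tissues.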

How the results depend on the processing

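A score of at least 7 left 4255 baits tested and Olig3 untested. It gave 567 called baits and 1 called member in Ezh2cKO, 1543 by stage, 117 and 1 member in Md Ezh2cKO, 524 for 36kb, 108 for 42kb, 9 between WT tissues, 2 for the tissue difference and 2 members for promoter partners. Counting baits listed first only also left Olig3 untested, with 1 called member in Ezh2cKO and in Md. By stage, 1 member passed without scaling and 2 at a mean of at least 1, where 18 baits differed between WT tissues. The looser rule for gained interactions (6 of 8 against 2 of 8) found 2 of 70, against 5.71% of all interactions.

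Small differences turned sign: Neurog2 by stage to 0.062 (no scaling), 0.0082 (score 7) and 0.030 (listed first), Neurog2 and Bhlhe22 without scaling to -0.030 and -0.11 (36kb) and -0.021 and -0.024 (42kb), Neurog2 for 42kb to -0.058 (score 7) and Neurod1 in Ezh2cKO to -0.36 (score 7). The replicate block changed no call: Neurog2 in Ezh2cKO stayed at -2.14, and at 500 kb or more at -5.14. No setting that tested them ended the Ezh2cKO call of Neurog2 or Olig3 for all cis calls averaged over tissues.

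Without single libraries, called baits ranged from 1668 to 2860 by stage, 594 to 1300 (36kb), 29 to 122 (42kb), 7 to 25 (WT tissues), 1 to 3 (tissue difference) and 192 to 523 (promoter partners by stage), and in Ezh2cKO from 55 to 88 (FNP), 60 to 103 (Mx), 92 to 158 (Md) and 81 to 98 (PA2). Called members ranged from 0 to 0 (FNP), 1 to 2 (Md), 0 to 1 (stage) and 1 to 2 (promoter partners). Differences that crossed 0 ranged from -0.13 to 0.027 (Neurog2, stage), -0.14 to 0.27 (Olig3, stage), -0.0033 to 0.18 (Bhlhe22, 36kb), -0.13 to 0.36 and -0.13 to 0.41 (Bhlhe22, Mx and Md) -0.044 to 0.56 (Atoh1 at 500 kb or more) and -0.12 to 0.49 (Atoh1, all cis calls in Ezh2cKO).

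Low counts limit 6 of the 9 promoters, and 2 libraries per group limit tissue comparisons. The causes of these changes were not tested, beyond fewer baits or libraries entering the fit.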
